A study of Triticum aestivum with 3 samples.

Results

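The miR172 family was followed across 6 small RNA libraries of wheat (Triticum aestivum) seedling leaves. Its members were the table entries numbered as miR172 or MIR172, whatever the species prefix, arm or suffix, counted once per distinct sequence. They came to 40 of the 1896 distinct sequences. The leaves had been treated for 2 days with dithiothreitol (DTT) plus tauroursodeoxycholic acid (TUDCA), with DTT alone, or kept as control, which the labels do not describe further. DTT is a reducing agent that hinders disulfide bond formation in the endoplasmic reticulum, and TUDCA, a bile acid, serves as a chemical chaperone for protein folding there. The labels give 1 sample per treatment, no dose and no cultivar, and each sample was read as 2 RNA pools assembled from 3 biological replicates. The labels do not say which replicate went into which pool, so the pools were read as repeat runs of 1 sample and no p-value was computed between treatments.

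miR172 is a plant microRNA that directs cleavage and translational repression of mRNAs of APETALA2-like transcription factors. In Arabidopsis and in cereals it accumulates as shoots age, while miR156, an inhibitor of SPL transcription factors, declines, and the pair times the change from juvenile to adult growth and flowering. In wheat the spike and threshability gene Q is an AP2-like target of miR172. The guide strand comes from the 3p arm of the hairpin precursor, and the 5p arm gives the passenger strand, most of which is degraded. No mRNA was measured, so target levels are not described here. In leaf RNA, fewer cells that make a miRNA and less of it per cell cannot be told apart.

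The sequences on which the results turn are given 5′ to 3′ as the deposited table writes them, as DNA, with the seed (bases 2 to 8, by which miRNAs are grouped, although plant miRNAs pair with targets along nearly their whole length) in capitals. The first set holds 6 of the abundant guide forms and 3 forms whose seed differs from theirs.
ata-miR172b-3p: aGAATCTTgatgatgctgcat
aly-miR172c-3p: aGAATCTTgatgatgctgcag
ata-miR172c-3p: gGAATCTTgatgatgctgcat
zma-miR172e_R+1_1ss1GA: aGAATCTTgatgatgctgcatt
bol-miR172a_R+2: aGAATCTTgatgatgctgcattt
ata-miR172a-3p_R-2: aGAATCTTgatgatgctgc
zma-miR172e_L-1R+1: gAATCTTGatgatgctgcatt
aly-miR172c-3p_L+1_1ss22GT: aAGAATCTtgatgatgctgcat
bdi-miR172d: aGAATCCTgatgatgctgcag
The second set holds forms described below by value that were assigned to the 5p arm by alignment.
aly-miR172e-5p: gCAGCACCattaagattcac
ata-miR172c-5p_R-3: gTGGCATCatcaagattcac
ata-miR172b-5p: gCAGCACCaccaagattcaca
aly-miR172c-5p: gGAGCATCatcaagattcaca
lus-miR172j_L+1R-1: tGCAGCATcatcaagattccc
In a name, the prefix is the species whose registered miRNA the sequence was matched to (ata Aegilops, aly Arabidopsis lyrata, zma maize, osa rice, bdi Brachypodium, bol cabbage, lus flax, nta tobacco, gra cotton, mes cassava). L and R give bases added or removed at the 5′ and 3′ ends, and ss gives substitutions. The prefix names a match and not the plant the read came from.

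Of the 40 sequences, 25 were guide forms, with at least 12 bases matching ata-miR172b-3p in an ungapped alignment. A further 9 were forms of the other arm, whose reverse complement matched it in the same way. The remaining 6 (the pairs named nta-MIR172 and gra-MIR172, with mes-MIR172d-p3_2ss1TA18CA and vvi-MIR172d-p5_2ss7GT17CT) matched neither. They are listed as predicted fragments of precursors that carry the family name. As background, the stretch in nta-MIR172e-p3_2ss14CG18TA and nta-MIR172f-p5_2ss15CG19TA also stands in plant U6 small nuclear RNA. Together the 6 took between 0.0752% and 0.455% of the family's normalized reads in a pool, so the label miR172 fitted the sequence of nearly all reads. Lengths ran from 18 to 23 nt, and sequences of 21 nt held 90.7% to 92.6% of the family's reads.

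Of the 25 guide forms, 17 had the seed of ata-miR172b-3p, and these took 97.3% to 98.5% of the family in every pool. The guide forms that start 1 base later, and so have another seed, took 0.143% to 0.345%, and those that start 1 base earlier took 0.0845% to 0.206%. Substitutions are counted from the 5′ end of ata-miR172b-3p. aly-miR172c-3p differs from it by T21G and ata-miR172c-3p by A1G, both outside the seed. bdi-miR172d carries T7C and T21G, and T7C lies in the seed. tcc-miR172d carries T7C alone, and it was listed at no more than 7.85 normalized reads in any pool.

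No member carried a wheat (tae) name. The exact Aegilops forms ata-miR172b-3p and ata-miR172b-5p lie in 1 precursor, on TGACv1 scaffold 526392 of chromosome arm 6DL, plus strand, 76966 to 77072. ata-miR172c-3p and ata-miR172c-5p_R-3 share a precursor on scaffold 249223 of 3DL, plus strand, 73377 to 73570. ata-miR172a-3p_R-2 was placed on scaffold 621670 of 7DS, plus strand, 14812 to 14954. Positions are as deposited for 36 of the 40 members, and gene annotation around them was not used here. For 14 members the listed span was shorter than 60 bases, down to 24, and aly-miR172c-3p, placed on scaffold 500559 of 6BL, minus strand, 67565 to 67620, was among them. The 4 members with no wheat position were aly-miR172e-5p, bol-miR172a_R+2, gra-miR172b and aly-miR172c-3p_L+1, and together they took 1.41% to 2.25% of the family.

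The values are signal, namely the authors' normalized reads. Per pool, 1 read was worth between 0.516 and 1.70 normalized reads, and the table holds about 330652 to 1211766 implied reads in a pool. The family held 11254 to 47649 of these. The pools differed in makeup: entries with wheat or Aegilops names took 66.6% and 52.5% of the normalized reads with DTT+TUDCA, 57.5% and 60.4% with DTT, and 59.2% and 59.8% in the control pools. Entries without a wheat position took 4.48% and 10.5% with DTT+TUDCA, 9.54% and 9.06% with DTT, and 7.69% and 6.85% in the control pools. Between DTT+TUDCA pools 1 and 2, 70.9% of the sequences that reached 20 normalized reads were 2-fold apart, against 33.7% for the DTT pools and 27.2% for the control pools. Of the miR172 members, 11 of 21, 3 of 17 and 8 of 17 were that far apart in DTT+TUDCA, DTT and control. The part of these differences in the results below was not tested. Values worth 1 read were nearly absent from the table, so no upper limit goes with a listed 0.

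Summed over all members, miR172 was at 16382 and 24571 normalized reads in DTT+TUDCA pools 1 and 2, at 19294 and 29689 with DTT, and at 31309 and 19098 in the control pools. The family thus took 2.41% and 3.93% of the DTT+TUDCA pools, 3.02% and 5.48% of the DTT pools, and 4.74% and 3.40% of the control pools. Among 329 numbered families it ranked between 6th and 11th by reads. The pools of any 2 treatments overlapped, and the pools of a treatment lay 1.5-fold, 1.54-fold and 1.64-fold apart for DTT+TUDCA, DTT and control.

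ata-miR172b-3p, the exact 21 nt guide, made up 79.4% to 81.0% of the family in every pool. It was at 13265 and 19886 normalized reads with DTT+TUDCA, at 15475 and 23962 with DTT, and at 24853 and 15397 in the control pools. Its DTT+TUDCA mean was 16575 ± 4681, its DTT mean 19719 ± 6001 and its control mean 20125 ± 6686 (SD, n = 2 pools each). The 3 means lay within the spread between pools. aly-miR172c-3p, with G in place of T at the 3′ end, was next. It was at 1015 and 1465 normalized reads with DTT+TUDCA, at 1292 and 2007 with DTT, and at 2237 and 974 in the control pools. Control pool 1 held the highest value and control pool 2 the lowest, so the treatments overlapped throughout.

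ata-miR172c-3p, the guide form that starts with G, followed by mean level. It was at 823 and 919 normalized reads with DTT+TUDCA, at 844 and 875 with DTT, and at 1318 and 1148 in the control pools. In these deposited values both control pools lay above the other 4, which spanned a narrow range. zma-miR172e_R+1_1ss1GA, which is ata-miR172b-3p with 1 more T, was at 518 and 951 with DTT+TUDCA, at 625 and 1256 with DTT, and at 1058 and 565 in the control pools. The treatments overlapped for this form. aly-miR172c-3p_R+1_1, aly-miR172c-3p_R+1_2 and aly-miR172c-3p_R+1_3 end in A, C or T after the G and were listed with identical values. Each was at 79.9 and 181.0 with DTT+TUDCA, at 167 and 243 with DTT, and at 264 and 114 in the control pools. Their shared reads thus enter the family sum more than once, and a sum over distinct sets of values put ata-miR172b-3p at 81.7% of the family on average, against 80.5%.

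The last of the 10 most abundant were bol-miR172a_R+2, with 2 more T than ata-miR172b-3p, and ata-miR172a-3p_R-2, which lacks its last 2 bases. bol-miR172a_R+2 was at 47.9 and 147 normalized reads with DTT+TUDCA, at 129 and 251 with DTT, and at 136 and 50.1 in the control pools. ata-miR172a-3p_R-2 was at 44.9 and 27.8 with DTT+TUDCA, at 27.2 and 31.4 with DTT, and at 60.4 and 50.6 in the control pools. Both control pools of ata-miR172a-3p_R-2 exceeded the other 4. The other 30 members did not exceed 77.4 normalized reads in any pool, and 17 of them were listed at 0 in at least 1 pool.

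**Figure D1:**
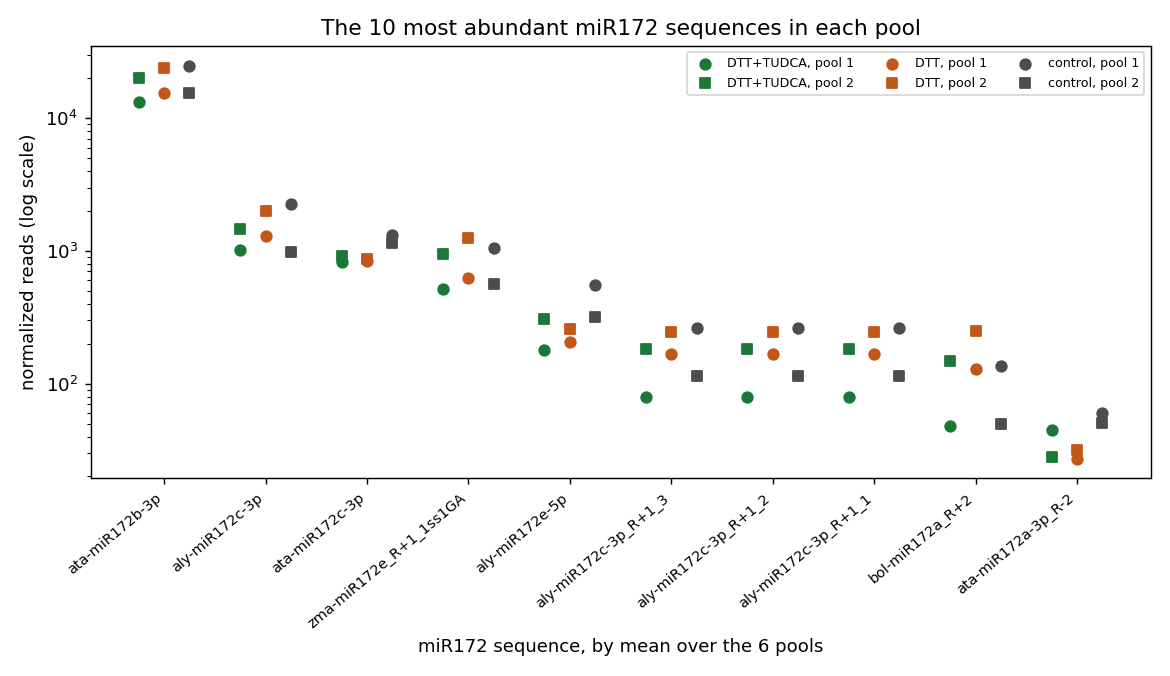
Normalized reads (log scale) of the 10 most abundant miR172 sequences, ordered by mean, with each pool as a point (circle pool 1, square pool 2) for DTT+TUDCA, DTT and control. ata-miR172b-3p lies about an order of magnitude above the rest, from 13265 to 24853, and the control pools stand above the others for ata-miR172c-3p, aly-miR172e-5p and ata-miR172a-3p_R-2.

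The order of the pools was shared by most members. In control, 10 of the 10 most abundant members were higher in pool 1, in DTT 10 of 10 were higher in pool 2, and in DTT+TUDCA 9 of 10 were higher in pool 2, with ata-miR172a-3p_R-2 as the exception. The aly-miR172c-3p_R+1 forms among them share 1 set of values. Of all sequences measured in both pools together, 325 of 683 were higher in pool 1 in control. In DTT 304 of 698 were, and in DTT+TUDCA 602 of 882. To set the movement common to the members aside, each was also expressed as a percentage of ata-miR172b-3p in the same pool, a quantity that no scaling of the pools can change. The division evens out the pools of members that share the order of ata-miR172b-3p, and adds that order to sequences that do not. Shares over all sequences in this measure are thus not a like background for the members. aly-miR172c-3p was at 7.65% and 7.37% with DTT+TUDCA, at 8.35% and 8.38% with DTT, and at 9.0% and 6.33% in the control pools. zma-miR172e_R+1_1ss1GA was at 3.90% and 4.78% in DTT+TUDCA, at 4.04% and 5.24% in DTT, and at 4.26% and 3.67% in control. The proportions of these 3′ end forms overlapped between control and each treatment, while aly-miR172c-3p was lower with DTT+TUDCA than with DTT in every pool.

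ata-miR172c-3p was at 6.21% and 4.62% of ata-miR172b-3p with DTT+TUDCA, at 5.46% and 3.65% with DTT, and at 5.31% and 7.45% in the control pools. The gap seen in its deposited values was therefore not seen in this proportion, where the treatments overlapped. The longer form bol-miR172a_R+2 was at 0.361% and 0.739% in DTT+TUDCA, at 0.834% and 1.05% in DTT, and at 0.546% and 0.325% in control. Both DTT pools lay above both control pools and above both DTT+TUDCA pools. zma-miR172e_L-1R+1, whose seed is shifted by 1 base, was at 0.153% and 0.0674% in DTT+TUDCA, at 0.0810% and 0.102% in DTT, and at 0.0442% and 0.0331% in control. It was higher in all 4 treated pools, from counts of 3 to 34 implied reads.

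**Figure D2:**
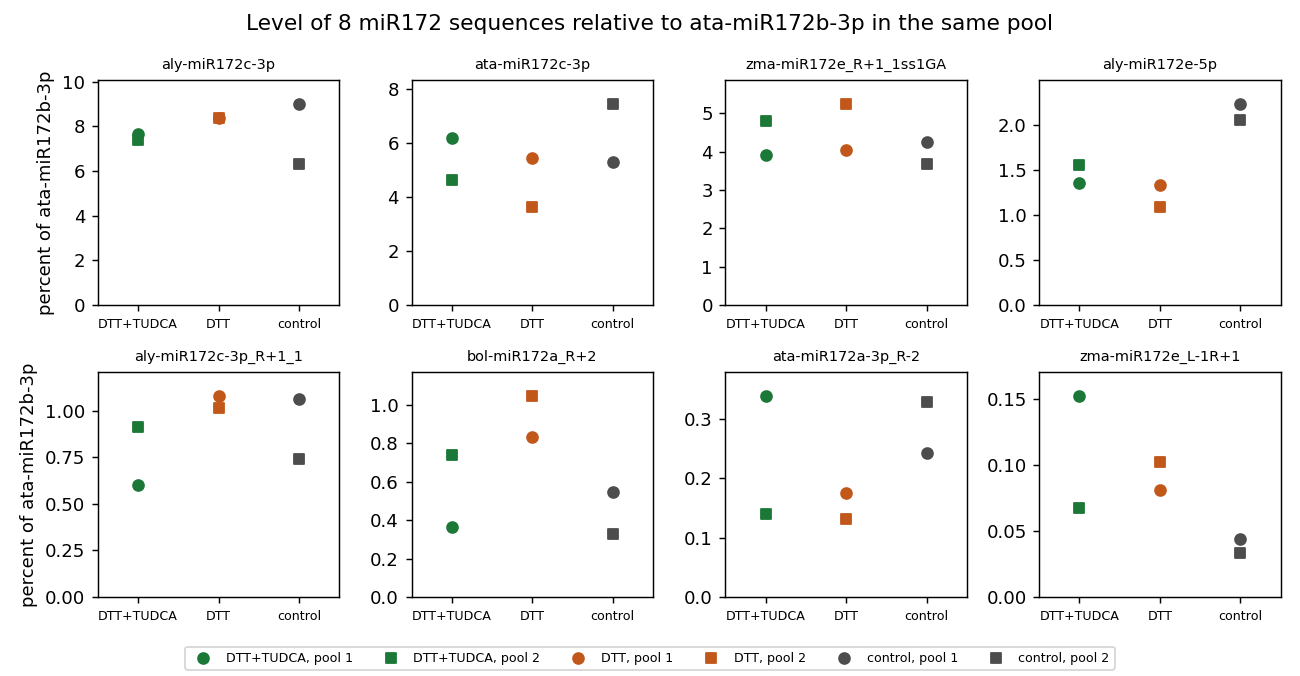
Level of 8 miR172 sequences as a percentage of ata-miR172b-3p in the same pool, for DTT+TUDCA, DTT and control (circle pool 1, square pool 2). For aly-miR172e-5p the control pools, at 2.23% and 2.05%, stand above the other 4, and for zma-miR172e_L-1R+1 they stand below them.

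The 9 forms assigned to the 5p arm by alignment held 1.470% and 1.501% of the family with DTT+TUDCA. They held 1.251% and 0.9966% with DTT, and 1.885% and 2.088% in the control pools. nta-MIR172f-p5_2ss15CG19TA, which holds the U6 stretch, and vvi-MIR172d-p5_2ss7GT17CT are like neither arm and carry p5 in name only. With both counted in, the shares were 1.69% and 1.54% with DTT+TUDCA, 1.31% and 1.04% with DTT, and 1.92% and 2.16% in control. The order of the DTT+TUDCA pools thus depended on these fragments. Most of the 5p arm was aly-miR172e-5p, a passenger form registered from Arabidopsis lyrata and without a wheat position. aly-miR172e-5p was at 180.1 and 309 normalized reads with DTT+TUDCA, at 206 and 259.9 with DTT, and at 554 and 316 in the control pools. Both control pools exceeded the other 4, though control pool 2 and DTT+TUDCA pool 2 were close. As a percentage of ata-miR172b-3p it was at 1.36% and 1.56% in DTT+TUDCA, at 1.33% and 1.08% in DTT, and at 2.23% and 2.05% in control, so the control pools separated further from the other 4 once set against ata-miR172b-3p.

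Counting error was small beside this gap. Of the implied reads of aly-miR172e-5p and ata-miR172b-3p together, aly-miR172e-5p made up 1.34% (95% Clopper-Pearson interval 1.15% to 1.56%) and 1.53% (1.41% to 1.66%) with DTT+TUDCA. It made up 1.31% (1.14% to 1.51%) and 1.07% (0.966% to 1.19%) with DTT, and 2.18% (1.96% to 2.42%) and 2.01% (1.73% to 2.32%) in the control pools. The intervals cover counting error only, with implied reads rounded to whole numbers. The 2 sequences are listed under different precursors, so the share is not the arm ratio of 1 hairpin. No interval of a control pool overlapped that of a treated pool. As a wider group, the 103 other exact Arabidopsis entries that lack a wheat position took 2.21% and 5.92% of the DTT+TUDCA pools, 5.10% and 5.48% of the DTT pools, and 4.26% and 3.66% of the control pools. Relative to those, aly-miR172e-5p was at 1.2% and 0.836% in DTT+TUDCA, at 0.631% and 0.876% in DTT, and at 1.97% and 1.54% in control, with both control pools highest. Where the reads of aly-miR172e-5p came from was not tested.

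The other 5p forms were rare. ata-miR172c-5p_R-3, placed in the precursor of ata-miR172c-3p, was at 21.3 and 25.8 normalized reads with DTT+TUDCA, at 11.5 and 7.20 with DTT, and at 18.8 and 62.8 in the control pools. All but its first base also stand in aly-miR172a-5p_L-1R+1, placed on 7AS, so its reads may come from more than 1 precursor. Of the reads of both arms listed for the 3DL precursor, ata-miR172c-5p_R-3 made up 2.52% (95% Clopper-Pearson interval 1.55% to 3.87%) and 2.73% (2.03% to 3.58%) in DTT+TUDCA. It made up 1.34% (0.672% to 2.39%) and 0.816% (0.392% to 1.5%) in DTT, and 1.41% (0.730% to 2.45%) and 5.19% (3.68% to 7.08%) in control. The intervals of the 2 control pools did not overlap, so the control pools differed by more than counting error, and the value of control pool 1 lay inside the intervals of both DTT pools.

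ata-miR172b-5p, the passenger of the most abundant guide, was at 24.5 and 1.03 normalized reads with DTT+TUDCA, at 2.09 and 7.92 with DTT, and listed at 0 and at 3.39 in the control pools. Its reads were at most 0.184% of its own plus those of ata-miR172b-3p, in DTT+TUDCA pool 1. osa-miR172a_R+2 and nta-miR172c_R+2, which hold all bases of ata-miR172b-3p, were placed on 7AS and 6BL. Reads of ata-miR172b-3p may thus come from several precursors, and the percentage is not the arm share of 1 of them. aly-miR172c-5p was at 7.46 and 11.9 in DTT+TUDCA, at 2.09 and 4.32 in DTT, and at 4.71 and 8.49 in control. aly-miR172a-5p_L-1R+1 ranged from 2.09 to 6.48 over the 6 pools and aly-MIR172c-p5 from a listed 0 to 9.42, and both overlapped between DTT and control. At these few reads, both DTT+TUDCA pools lay below both control pools for aly-miR172a-5p_L-1R+1, and below both DTT pools for aly-MIR172c-p5.

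lus-miR172j_L+1R-1 was placed on the minus strand of scaffold 249223, 73480 to 73561, within the span of the plus-strand precursor of ata-miR172c-3p. The reverse complement of this 21 nt sequence matched ata-miR172c-3p at 20 bases, against 16 for the passenger ata-miR172c-5p_R-3. It was at 2.13 and 5.67 normalized reads with DTT+TUDCA, at 11.5 and 2.88 with DTT, and listed at 0 in both control pools. The values stand for 2 to 11 implied reads.

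**Figure D3:**
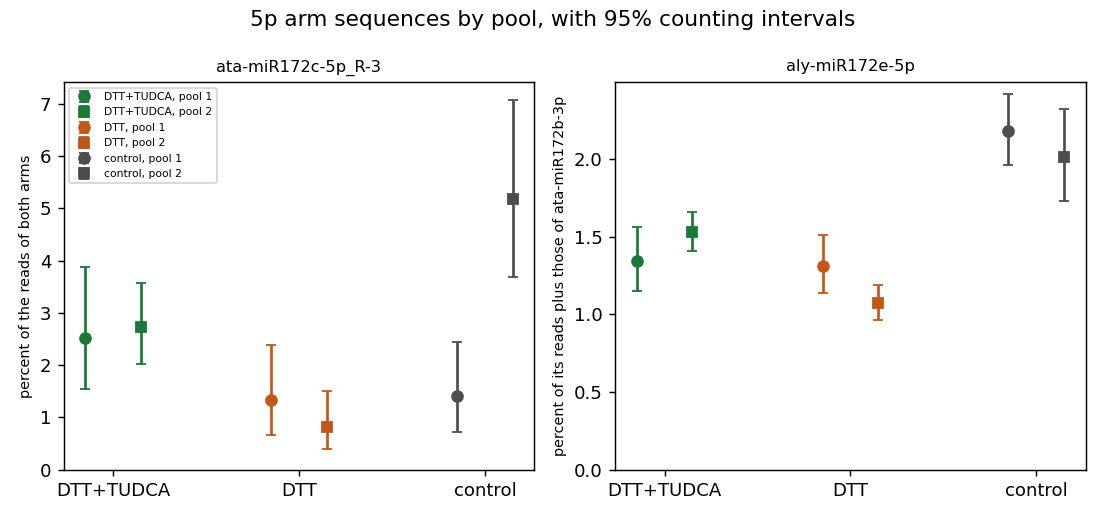
Share of ata-miR172c-5p_R-3 among the reads of both arms listed for its precursor (left) and of aly-miR172e-5p among its own reads plus those of ata-miR172b-3p (right), in percent, for each pool of DTT+TUDCA, DTT and control with 95% counting intervals. The pair on the right are listed under different precursors and give no arm ratio. The control pools of aly-miR172e-5p lie at 2.18% and 2.01%, above all others, while those of ata-miR172c-5p_R-3 lie apart at 1.41% and 5.19%.

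The comparison of DTT with control concerns the reducing agent alone. The family sum had a log2 ratio of -0.04 (summed pools plus a pseudocount of 1) as deposited, and of 0.06 with the pools rescaled to equal totals, against a spread of 0.67, which combines the SDs of the log2 values between the pools of both treatments. Among 23 members with at least 20 normalized reads over the 4 pools, 2 were at least 2-fold higher and 1 was at least 2-fold lower. Of all 958 sequences measured in the same way, 16.8% were higher and 10.2% lower. The median log2 ratio was 0.12 over the 23 members and 0.08 over all sequences. The 2 higher members were zma-miR172e_L-1R+1, at 12.5 and 24.5 normalized reads with DTT against 11.0 and 5.09 in control (log2 ratio 1.15), and bol-miR172a_R+2 (1.03). The pools of zma-miR172e_L-1R+1 did not overlap and those of bol-miR172a_R+2 did. Without control pool 2 neither passed, at 0.73 and 0.48, and the same held without DTT pool 2 for zma-miR172e_L-1R+1 (0.61) and bol-miR172a_R+2 (0.47). The number of members past the limit was not stable: 4 were higher without DTT pool 1 or without control pool 1, 0 without control pool 2, and 2 to 4 were lower whichever pool was left out. With the pools scaled on wheat and Aegilops names, 1 was higher and 4 were lower.

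The lower member was ata-miR172c-5p_R-3, with a log2 ratio of -2.07, from pools that did not overlap in normalized reads. It rested on 11 and 10 implied reads with DTT against 12 and 37 in control, so the nearest pools held 11 and 12. Without control pool 2 it was at -0.97, just inside the 2-fold limit. aly-miR172e-5p was at -0.90, zma-miR172e_R+1 at -0.92, ata-miR172a-3p_R-2 at -0.91 and ata-miR172c-3p at -0.52, all under the limit. As deposited, each of them had both DTT pools below both control pools. With ata-miR172c-5p_R-3 these were 5 of the 23 members, where 18.4% of all sequences had both DTT pools lower. As a percentage of ata-miR172b-3p, 5 of 22 members were lower in both DTT pools, against 11% of all sequences, and 3 were higher, against 20.3%. Those 5 were aly-miR172e-5p, ata-miR172c-5p_R-3, zma-miR172e_R+1, ata-miR172a-3p_R-2 and aly-miR172c-3p_L-1, and the 3 were bol-miR172a_R+2, zma-miR172e_L-1R+1 and aly-miR172c-3p_L+1. For ata-miR172c-5p_R-3 the nearest pools were at 0.0743% (DTT pool 1) and 0.0758% (control pool 1). All sequences are not a like background for this percentage, as said above, so the shares are not read as a family result. In deposited values, zma-miR172e_L-1R+1 was the 1 member of the 23 with both DTT pools above both control pools, against 22.8% of all sequences. Leaving out a pool moved aly-miR172e-5p between -1.25 (without control pool 2) and -0.44 (without control pool 1).

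The comparison of DTT+TUDCA with DTT concerns the chaperone added to the reducing agent. The family sum had a log2 ratio of -0.26 as deposited and of 0.13 with the pools scaled on wheat and Aegilops names, against a spread of 0.60. The spread is that of the deposited values. Scaling on wheat and Aegilops names divided DTT+TUDCA pools 1 and 2 by 5.04 and 0.399, so the family sum then rests mostly on pool 2. Of 25 members measured, 6 were at least 2-fold higher and 0 lower, while of all 1099 sequences 40.2% were higher and 3.46% lower. The median was -0.13 over the members and 0.72 over all sequences. Under the 3 other scalings the median of all sequences was 0.55, 0.46 and 0.01, so the background beside which the members stand moved with the scaling. Scaled on wheat and Aegilops names, 82 of 1062 sequences were higher and 66 lower, and of the members 4 were higher and 4 lower. Leaving out DTT+TUDCA pool 1 left 3 members higher, and 8, 4 or 3 members were lower without DTT+TUDCA pool 2, DTT pool 1 or DTT pool 2. The 17 guide forms measured had a median of -0.41 and 1 member past the limit. That member was bdi-miR172d, listed at 0 and at 77.4 normalized reads with DTT+TUDCA and listed at 0 and at 3.60 with DTT. Its value came from DTT+TUDCA pool 2 alone, where it stood for 150 implied reads.

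Of the 5 forms of the other arm measured, 3 were at least 2-fold higher with DTT+TUDCA than with DTT, where 40.2% of all sequences were. ata-miR172c-5p_R-3 had a log2 ratio of 1.29 and aly-miR172c-5p of 1.46, both from pools that did not overlap. ata-miR172c-5p_R-3 rested on 20 and 50 implied reads against 11 and 10 with DTT, and aly-miR172c-5p on 7 and 23 against 2 and 6. Both stayed past the limit when any 1 pool was left out, which is no check of stability at such counts. ata-miR172b-5p was at 1.27, from DTT+TUDCA pool 1, and at -1.85 without that pool. aly-miR172e-5p, the abundant 5p form, was at 0.07. The last pair past the limit were members unlike the guide, mes-MIR172d-p3_2ss1TA18CA, at 14.9 and 5.67 with DTT+TUDCA against a listed 0 and 6.48 with DTT, and nta-MIR172e-p3_2ss14CG18TA, at 11.7 and 4.64 with DTT+TUDCA against 3.13 and 3.60 with DTT. The pools of nta-MIR172e-p3_2ss14CG18TA did not overlap, so of the 25 members measured 3 had both DTT+TUDCA pools higher, against 11.3% of all sequences, and 0 had both lower, against 6.37%. nta-MIR172e-p3_2ss14CG18TA was at 0.41 without DTT+TUDCA pool 1 and at 0.63 when scaled on wheat and Aegilops names, and mes-MIR172d-p3_2ss1TA18CA was at 0.72 without DTT+TUDCA pool 1 and at 0.63 without DTT pool 1, all under the limit. nta-MIR172f-p5_2ss15CG19TA was at 32.0 and 8.25 with DTT+TUDCA, at 11.5 and 11.5 with DTT, and at 6.28 and 13.6 in control.

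Set against ata-miR172b-3p, members differed in both directions in this comparison. Of 24 members, 6 had both DTT+TUDCA pools below both DTT pools, against 4.01% of all sequences, and 6 were higher, against 11.6%. Since most members share the pool order of ata-miR172b-3p, all sequences are not a like background, and the shares are not read as a family result. The lower ones were all guide forms: aly-miR172c-3p, its 3 forms with 1 added base, which share their values, bol-miR172a_R+2 and aly-miR172c-3p_L+1_1ss22GT. The last starts 1 base earlier than the guide and so has a shifted seed. The 3 forms with 1 added base count as 3 of the 6 although they are 1 set of values. Each aly-miR172c-3p_R+1 form was at 0.602% and 0.910% with DTT+TUDCA, at 1.08% and 1.02% with DTT, and at 1.06% and 0.738% in control. The higher ones were aly-miR172e-5p, ata-miR172c-5p_R-3, aly-miR172c-5p and zma-miR172e_R+1, with mes-MIR172d-p3_2ss1TA18CA and nta-MIR172e-p3_2ss14CG18TA. Of these, 3 belong to the 5p arm and 2 are unlike the guide.

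DTT+TUDCA against control gives the combined treatment. It shares its DTT+TUDCA pools and its control pools with the comparisons above. The family sum had a log2 ratio of -0.30, against a spread of 0.65, and was negative under all 3 other scalings (-0.36, -0.39 and -0.08), though 0.10 without control pool 1. The -0.08, scaled on wheat and Aegilops names, rests mostly on DTT+TUDCA pool 2. Of 25 members measured, 4 were at least 2-fold higher and 1 lower, against 41.4% higher and 6.05% lower of all 1107 sequences. The median was -0.47 over the members and 0.66 over all sequences, and the median of all sequences was 0.53, 0.44 and 0.24 under the 3 other scalings. Scaled on wheat and Aegilops names, 201 of 1046 sequences were higher and 123 lower, and of the members 3 were higher and 4 lower. The 4 higher were bdi-miR172d (log2 ratio 2.30), ata-miR172b-5p (2.59), zma-miR172e_L-1R+1 (1.02) and mes-MIR172d-p3_2ss1TA18CA, which was listed at 0 in both control pools. The lower one was gra-MIR172a-p3_1ss7GA, unlike the guide, at 5.33 and 1.03 with DTT+TUDCA against 4.71 and 13.6 in control. It was within the limit without DTT+TUDCA pool 2 (-0.73) or control pool 2 (-0.50). bdi-miR172d again rested on DTT+TUDCA pool 2 and ata-miR172b-5p on DTT+TUDCA pool 1, and zma-miR172e_L-1R+1 was at 0.59 without control pool 2 and at 0.70 without DTT+TUDCA pool 1. Without DTT+TUDCA pool 1, 1 member was higher, and 9, 8 or 2 members were lower without DTT+TUDCA pool 2, control pool 2 or control pool 1.

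Among the abundant members, the pools of DTT+TUDCA and control did not overlap in those whose control pools were both high. aly-miR172e-5p was at -0.83 and ata-miR172c-3p at -0.50. The nearest pools of aly-miR172e-5p were close, at 309 (DTT+TUDCA pool 2) and 316 (control pool 2) normalized reads. As a percentage of ata-miR172b-3p, the pools of ata-miR172c-3p overlapped. ata-miR172c-5p_R-3 was at -0.78, with overlapping pools, and at 0.32 without control pool 2. The aly-miR172e-5p ratio lay between -0.90 and -0.56 under the other scalings, and between -1.27 (without DTT+TUDCA pool 2) and -0.37 (without control pool 1) with a pool left out. Under the other scalings that of ata-miR172c-3p lay between -0.62 and -0.36. Scaling on wheat and Aegilops names divides DTT+TUDCA pool 2 by 0.399 and control pool 2 by 1.21, and the pools of both members then overlap. Those of aly-miR172e-5p also overlap under median-of-ratios over all sequences. In all, 5 of 25 members had both DTT+TUDCA pools below both control pools, against 11.1% of all sequences, and 2 had both above, against 17.1%. The 5 were ata-miR172c-3p, aly-miR172e-5p, ata-miR172a-3p_R-2, osa-miR172a_1ss21TA and zma-miR172e_R+1. As a percentage of ata-miR172b-3p, 2 of 24 members were lower in both DTT+TUDCA pools, against 6.06% of all sequences, and 3 were higher, against 24.8%. The lower pair were aly-miR172e-5p and zma-miR172e_R+1. Here too all sequences are not a like background for the percentage.

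**Figure D4:**
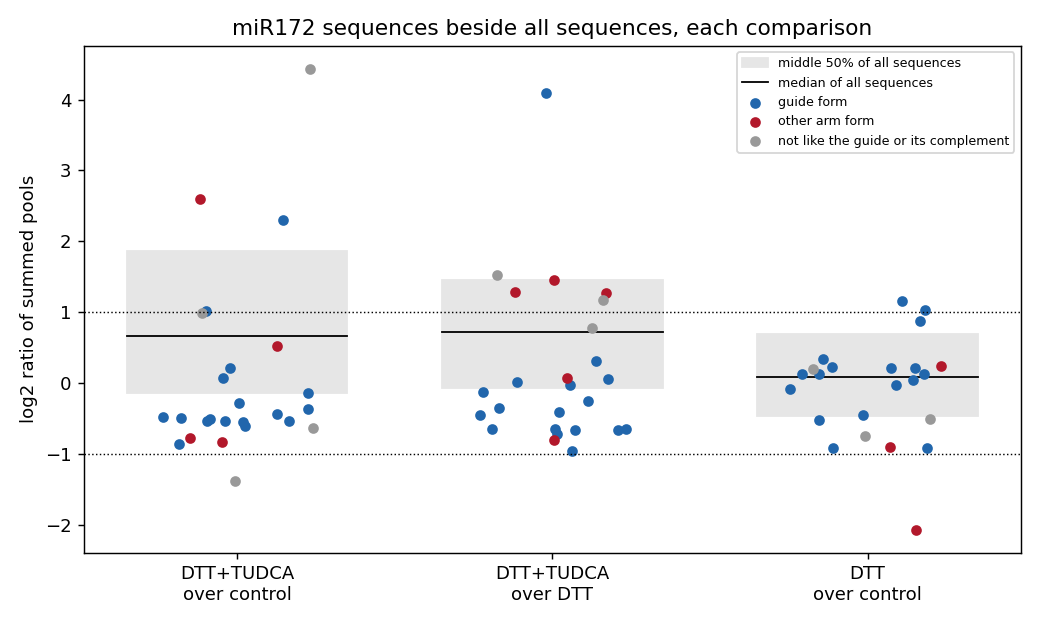
Log2 ratio of the summed pools for each measured miR172 sequence in the 3 comparisons, coloured by kind (guide form, form of the other arm, unlike either), over a box with the middle 50% of all sequences and their median. Dotted lines mark 2-fold. The point at the top left is mes-MIR172d-p3_2ss1TA18CA, listed at 0 in both control pools, so the pseudocount of 1 sets its height. The guide forms have medians of -0.47, -0.41 and 0.12 from left to right, while the median of all sequences is 0.66, 0.72 and 0.08.

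**Figure D5:**
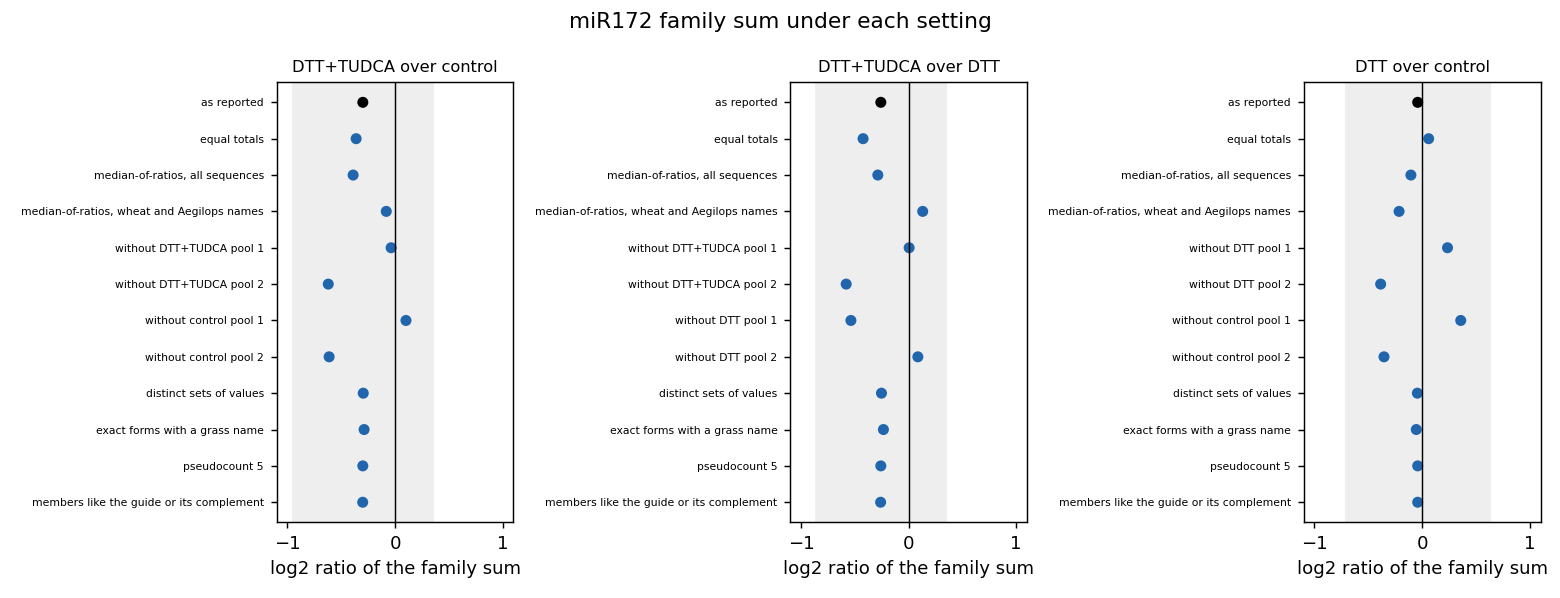
Log2 ratio of the miR172 family sum in each comparison as reported (black) and under every other setting (blue), with the spread between pools as a grey band. All points stay within the band, and leaving out 1 pool moves DTT over control between -0.39 and 0.36. The band is computed from the same pools, so points with 1 pool left out lie within it nearly by construction.

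The other miRNAs of phase change and flowering were described through a list of families, miR156, miR157, miR529 and miR535 for the age pathway and miR159, miR319, miR444 and miR5200 for flowering and leaf development. It had 143 sequences in the table, none of miR529. With DTT against control, 9 of 87 measured were at least 2-fold higher and 9 lower, with a median log2 ratio of -0.18, where 16.8% of all sequences were higher and 10.2% lower. With DTT+TUDCA against DTT, 32 of 91 were higher and 0 lower (median 0.50), and against control 27 of 92 were higher and 4 lower (median 0.34). Of all sequences, 40.2% were higher and 3.46% lower than with DTT, and 41.4% were higher and 6.05% lower than in control. Without DTT+TUDCA pool 1, 1 was higher than with DTT and 11 higher than in control, and scaling on wheat and Aegilops names left 4 and 15. In both DTT+TUDCA comparisons the list's median was below that of all sequences and above that of the miR172 members.

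miR156 and miR157 together were at 17555 and 21621 normalized reads with DTT+TUDCA, at 18537 and 10863 with DTT, and at 13461 and 15938 in the control pools. The ratio of summed miR172 to summed miR156 and miR157 was 0.933 and 1.14 in DTT+TUDCA, 1.04 and 2.73 in DTT, and 2.33 and 1.2 in control. DTT and control overlapped in this ratio, and both DTT+TUDCA values lay below both control values by a margin far smaller than the gap between the control pools. Over wheat or Aegilops names alone, 5 sequences of miR172 and 2 of miR156 and miR157, the ratio was 28.2 and 858 in DTT+TUDCA, 371 and 190.3 in DTT, and 619 and 149 in control, and the DTT+TUDCA values lay on both sides of the others. Of the named list members, tae-miR319, a regulator of TCP transcription factors of leaf shape, was at 15735 and 14877 in DTT+TUDCA, at 14270 and 18004 in DTT, and at 31440 and 19831 in control. tae-miR159a_R-1, whose family targets GAMYB factors, was at 4234 and 1252 in DTT+TUDCA, at 1427 and 1271 in DTT, and at 1507 and 1851 in control. tae-MIR159a-p5 was at 788 and 91.3 in DTT+TUDCA, at 30.3 and 149 in DTT, and at 37.7 and 96.7 in control.

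Entries outside the family were ranked by how closely their pattern over the 6 pools followed the miR172 sum, as the root mean square difference of centred log2 values. Over 212 sequences with a mean of at least 100 normalized reads the median difference was 0.67. The nearest were zma-miR171b-3p_R+2_1 and zma-miR171b-3p_R+2_2, with identical values and a difference of 0.13, followed by sbi-miR394a_L+1_1 and sbi-miR394a_L+1_2 (0.16, also identical) and aof-miR319a_R+1 (0.17). zma-miR171b-3p_R+2_1 was at 264 and 453 normalized reads in DTT+TUDCA, at 388 and 461 in DTT, and at 512 and 334 in control. aof-miR319a_R+1 was at 1928 and 2948 in DTT+TUDCA, at 2598 and 4458 in DTT, and at 5109 and 2466 in control. The 6 pools behind these likenesses share the differences in makeup given above.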

How the data were processed

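Leaf RNA went into small RNA libraries by TruSeq chemistry, sequenced from a single end over 50 bases, per the labels' protocols. The authors deposited 1 table of normalized reads (unit signal), with 2 columns per treatment, per the file headers. The aligner and counter are not stated, and the filters and normalization rule are likewise not given in the sources used here. Rows were reduced from 1969 to 1896 distinct sequences. The 2 pools of a treatment were summed, sequences reaching 20 normalized reads across the 4 pools of a comparison were kept, and log2 ratios were taken with a pseudocount of 1. An entry counted as higher or lower at 2-fold. No test was run, since each treatment is 1 sample. The spread beside a family ratio is the root of the summed variances of the log2 pool values of both treatments.

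The value of 1 read was the step of which 94.7% to 97.2% of a pool's values were whole multiples, within 0.01 reads. Reads divided among names give fractions, and no count model was used. Clopper-Pearson intervals used implied reads rounded to whole numbers, cover counting error only, and came from scipy 1.17.1.

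The members and lists were chosen with earlier results of these data known. Named members were the 10 with the highest mean, 5p arm members with at least 20 normalized reads in total, and those past 2-fold. The rest are given by range, and any other named member was chosen after its values were seen. The nearest 5 patterns and the 3 most abundant wheat or Aegilops entries of the list are named as well. Alternatives were 3 scalings, other pseudocounts, floors and limits, and each pool left out. The scaling on wheat and Aegilops names had its most unequal factors in DTT+TUDCA, 5.04 and 0.399 for pools 1 and 2. Python 3.11.15, pandas 2.3.3 and numpy 2.4.6 were used, and the steps were tested on simulated data.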

Additional observations from a re-analysis of the deposited data

How the results depend on the processing

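No paired analysis was possible because each treatment is 1 sample, no test was run, and the pool numbers are not shared between treatments by any label. The family sums moved by less than the spread between pools under every alternative run, and leaving out 1 pool gave log2 ratios of -0.39 to 0.36 for DTT against control, -0.58 to 0.09 for DTT+TUDCA against DTT, and -0.62 to 0.10 for DTT+TUDCA against control. The spread is computed from the same 2 pools per treatment. A ratio with 1 of them left out nearly always stays within it, so staying there is no check of stability. The counts of members past 2-fold did depend on the settings. For DTT against control, the 2 higher members became 1 under median-of-ratios scaling over all sequences or over wheat and Aegilops names, with a pseudocount of 5 or with a floor of 100, and 7 with no floor. The 1 lower member became 4 under the wheat and Aegilops scaling, 6 with no floor and 5 at a 1.5-fold limit. For DTT+TUDCA against DTT, the 6 higher members became 10 with no floor and 0 with a floor of 100, and the 0 lower became 1 under equal totals, 4 under the wheat and Aegilops scaling, 4 with no floor and 8 at a 1.5-fold limit. For DTT+TUDCA against control, the 4 higher members became 2 under equal totals, 2 under median-of-ratios over all sequences, 9 with no floor and 0 with a floor of 100. The 1 lower became 4 under the wheat and Aegilops scaling, 4 with no floor, 0 with a floor of 100, 6 at a 1.5-fold limit and 0 over members like the guide or its complement, an alternative chosen after seeing the data. Leaving out 1 pool gave 0 to 4 higher and 2 to 4 lower for DTT against control, 3 to 6 higher and 0 to 8 lower for DTT+TUDCA against DTT, and 1 to 5 higher and 1 to 9 lower for DTT+TUDCA against control.

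The share of ata-miR172b-3p was 81.65% over distinct sets of values. In the phase change and flowering list, whose alternatives were added after seeing the data, the wheat and Aegilops scaling gave 4 higher and 1 lower for DTT+TUDCA against DTT, and 15 higher and 10 lower for DTT+TUDCA against control, where median-of-ratios over all sequences gave 17 higher. Leaving out 1 pool gave 8 to 14 higher and 6 to 18 lower for DTT against control, 1 to 42 higher and 0 to 12 lower for DTT+TUDCA against DTT, and 11 to 36 higher and 4 to 22 lower for DTT+TUDCA against control. Of the log2 ratios of single members, 289 of 292 under other settings and 284 of 292 with 1 pool left out moved by less than the spread between pools, with no change of sign in a ratio past 2-fold. With a pool left out this was nearly fixed in advance, since the spread comes from the same pools. Ratios under 2-fold also changed sign with the setting in several members. Of those past 2-fold, bdi-miR172d and ata-miR172b-5p changed sign. With 1 pool left out, bdi-miR172d ranged from -2.20 to 6.29 against DTT and from -3.99 to 3.29 against control, and ata-miR172b-5p from -1.85 to 2.36 against DTT and from -0.52 to 4.73 against control. ata-miR172b-5p was also at -0.39 against DTT under the wheat and Aegilops scaling. The cause was not tested. Members at a few implied reads are limited by depth, and the pools give no measure of the spread between plants.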
